A study of Sus scrofa with 8 samples.

Results

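The genes studied here are the collagen genes of the pig, taken as every RefSeq gene whose symbol is COL, a number, A and a number. The Sscrofa11.1 annotation holds 43 of them, and 42 lie on chromosomes 1 to 18 and X, among 28077 annotated genes of which 19487 are protein-coding. COL6A2 lies on an unplaced scaffold and was not analysed here, nor were COL6A1 and COL6A4. The cells were untreated pig embryonic fibroblasts (PEFs) from 35-day-old Large White fetuses, dispersed with collagenase and grown for 24 h. ChIP-seq of the histone marks H3K4me3 and H3K27ac and of the architectural protein CTCF was carried out with 2 replicates each, which makes 6 libraries. The labels do not say whether the replicates came from separate cultures or fetuses, or whether fetuses were pooled, so the spread between them may be technical.

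Collagens are the triple-helical proteins of the extracellular matrix. Type I, III and V collagens build the fibrils of skin, tendon and most connective tissue and are the main secreted products of fibroblasts, whereas type II, IX, X and XI collagens are known from cartilage and type IV collagens from basement membranes. H3K4me3 marks the starts of genes and is found at CpG-rich starts in many cell types, H3K27ac marks active promoters and enhancers, and CTCF binds a long motif and anchors chromatin loops. A peak found in a subset of the cells and a weaker peak found in all of them cannot be told apart in such bulk libraries.

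The peak lists held 37932 and 43516 H3K4me3 peaks, 74983 and 81164 H3K27ac peaks, and 40289 and 44682 CTCF peaks in replicates 1 and 2. They give no read counts, so the depth behind a peak is unknown. The starts of 12 fibroblast marker genes (among them VIM, PDGFRA and DCN) carried both histone marks in both replicates in 12 of 12 cases. Of the markers of other cells, H3K27ac was found at the start in both replicates for 0 of 5 epithelial, 0 of 5 endothelial, 2 of 5 cartilage (SOX9 and HAPLN1), 1 of 4 blood (SPI1), 2 of 4 muscle (MYOG and DES) and 0 of 2 neural genes. The part of such cells in the results below was not tested.

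The sequences of 4 starts are shown first because they stand for the patterns described afterwards. They were read from Sscrofa11.1, 5′ to 3′, with TATA boxes (TATAAA, on the strand of the gene), CCAAT boxes (CCAAT, both strands) and GC boxes (GGGCGG, both strands) in capitals. COL1A2 (chr9:74174334-74174483, plus strand) is shown for a start with wide peaks of both marks, COL2A1 (chr5:78380894-78381043, minus strand) for a start with H3K4me3 and no H3K27ac, and COL17A1 (chr14:115007735-115007884, minus strand) for a start with neither. Each of these is the 150 bases before the start. The last stretch (chr11:76997410-76997542, plus strand) is the 133 bases between the start of COL4A1 and the next transcript start of COL4A2, shown for a shared start, and none of the 4 stretches touches an annotated exon.
COL1A2: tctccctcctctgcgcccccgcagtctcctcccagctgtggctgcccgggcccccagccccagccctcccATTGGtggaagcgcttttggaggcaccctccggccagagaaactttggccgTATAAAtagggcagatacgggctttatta
COL2A1: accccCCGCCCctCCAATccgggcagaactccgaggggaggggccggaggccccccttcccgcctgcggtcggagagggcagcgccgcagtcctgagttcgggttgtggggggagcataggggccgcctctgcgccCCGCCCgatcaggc
COL17A1: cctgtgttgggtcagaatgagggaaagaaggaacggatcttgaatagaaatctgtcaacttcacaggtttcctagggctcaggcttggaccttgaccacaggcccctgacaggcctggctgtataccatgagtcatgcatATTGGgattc
COL4A1-COL4A2: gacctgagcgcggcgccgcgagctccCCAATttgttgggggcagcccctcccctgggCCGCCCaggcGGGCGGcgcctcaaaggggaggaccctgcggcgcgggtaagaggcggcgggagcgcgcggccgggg

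The start of a gene was taken as the 5′ end of its annotation, and a peak was counted at the start when at least 1 base of it lay within 1 kb. H3K4me3 was found at the start of 34 of 42 collagen genes in both replicates (81.0%), beside 68.9% of protein-coding genes. H3K27ac was found at 18 of 42 starts (42.9%), beside 60.7%, and CTCF at 8 of 42 (19.05%), beside 17.9%. All 18 starts with H3K27ac also had H3K4me3, which gives 42.9% with both marks, beside 58.9%. Another 12 collagen genes (28.6%) had H3K4me3 in both replicates and H3K27ac in neither, beside 8.25% of protein-coding genes, and 8 (19.05%) had neither mark in any replicate, beside 27.5%. With this 1 kb window, the collagen share with H3K4me3 was thus above the background and the share with H3K27ac below it. Within 5 kb, H3K27ac was found at 26 of 42 collagen starts, beside 66.9% of protein-coding genes, so the gap was smaller with the wider window. Among the 34 starts with H3K4me3, 52.9% also had H3K27ac in both replicates, beside 85.5% of protein-coding starts with H3K4me3. The remaining 4 genes (COL8A2, COL9A2, COL9A3 and COL26A1) had H3K4me3 in both replicates and H3K27ac in replicate 2 only.

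These are counts from 2 libraries of each mark in 1 kind of cell, without a second condition, and no test was made. An exact permutation test of 2 libraries against 2 cannot give a p below 0.333. The fold enrichment of a peak over its control depended on the library: its median over the starts of protein-coding genes was 52.0 for H3K4me3 replicate 1 and 25.2 for replicate 2. It was therefore ranked within each library, as a percentile among the protein-coding genes with a peak at the start.

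**Figure D1:**
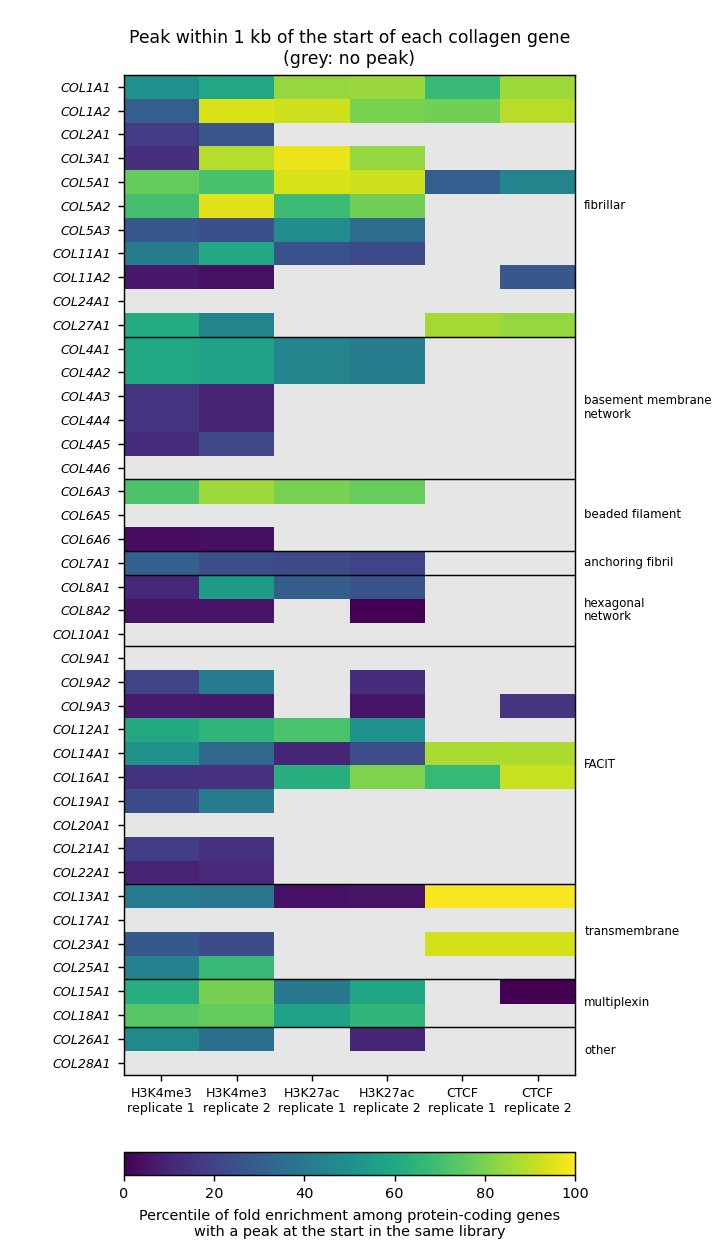
The heatmap shows, for each of 42 collagen genes (rows, by structural class) and 6 libraries (columns), the percentile of the fold enrichment of the strongest peak within 1 kb of the start, among protein-coding genes with such a peak in the same library (colour bar, 0 to 100), with grey for no peak. The 2 H3K4me3 columns are filled for the same 34 genes, whereas the H3K27ac columns are filled for 18 genes in replicate 1 and 22 in replicate 2.

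By structural class, H3K27ac was at the start of 7 of 11 fibrillar collagens, 2 of 6 type IV collagens of the basement membrane network, 1 of 3 beaded filament collagens, the 1 anchoring fibril collagen, 1 of 3 hexagonal network collagens, 3 of 10 fibril-associated collagens with interrupted triple helices (FACIT), 1 of 4 transmembrane collagens, 2 of 2 multiplexins and 0 of 2 others. The H3K27ac share over protein-coding genes was 60.7%, close to that of the fibrillar collagens. H3K4me3 was more evenly spread, with 10 of 11 fibrillar, 5 of 6 basement membrane, 2 of 3 beaded filament and 8 of 10 FACIT genes. Its share over protein-coding genes was 68.9%. Every class of more than 2 genes held at least 1 gene with neither mark.

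COL1A1 and COL1A2 encode the 2 chains of type I collagen, the most abundant collagen of connective tissue. At COL1A1 (chr12:26379087-26397180, minus strand), the H3K4me3 peak had a fold enrichment of 52.0 in replicate 1 and 27.6 in replicate 2, and the H3K27ac peak 26.7 and 31.6. At COL1A2 (chr9:74174484-74210407, plus strand), the values were 40.6 and 39.6 for H3K4me3 and 32.0 and 29.2 for H3K27ac. CTCF was present at both starts, with 23.95 and 36.8 at COL1A1 and 28.8 and 40.4 at COL1A2. Both genes thus had all 3 marks at the start in every library. At COL1A1, however, the CTCF summit lay 1120 bp and 1099 bp inside the gene, beyond the 1 kb window that the peak edge reached.

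What set these starts apart from most others was the width of the peaks. The H3K27ac peak measured 19105 bp and 20750 bp at COL1A1 and 36235 bp and 23913 bp at COL1A2, beside a median of 2441 bp and 2421 bp at protein-coding starts. COL3A1 (chr15:93556914-93595678, plus strand), which encodes the single chain of type III collagen, the partner of type I in extensible tissues, had the widest of all collagen starts, with 41923 bp and 41141 bp. The widths of these 3 genes lay between the percentiles 99.4 and 99.9 in both replicates. COL5A1 (chr1:273934219-274083264, plus strand), a chain of the type V collagen that starts fibril assembly, followed with 17006 bp and 19189 bp. The H3K27ac folds were 37.2 and 31.3 at COL3A1 and 33.2 and 36.8 at COL5A1, and the H3K4me3 folds at COL5A1 were 64.7 and 30.6. H3K27ac peaks above the percentile 99 of width in both replicates were found at these 4 collagen genes only, and above the percentile 95 also at COL6A3 and COL8A1.

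H3K4me3 was also wide at the same genes. Its peak measured 14221 bp and 23177 bp at COL1A2, 12615 bp and 17364 bp at COL3A1, and 9538 bp and 10344 bp at COL1A1, the 3 widest on average. The medians at protein-coding starts were 2740 bp and 2902 bp. The replicates placed these H3K4me3 peaks differently in height. For COL3A1 the fold enrichment was 24.6 in replicate 1, at the percentile 13.5, and 36.3 in replicate 2, at the percentile 88.9, and for COL1A2 the percentile moved from 30.1 to 94.5 although the fold was similar. Over the 34 starts with H3K4me3, Spearman's rho between replicates was 0.973 for width and 0.752 for fold enrichment, beside 0.941 and 0.746 over protein-coding starts (a description over genes that share their libraries). For the 18 starts with H3K27ac it was 0.986 and 0.915, beside 0.944 and 0.939.

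**Figure D2:**
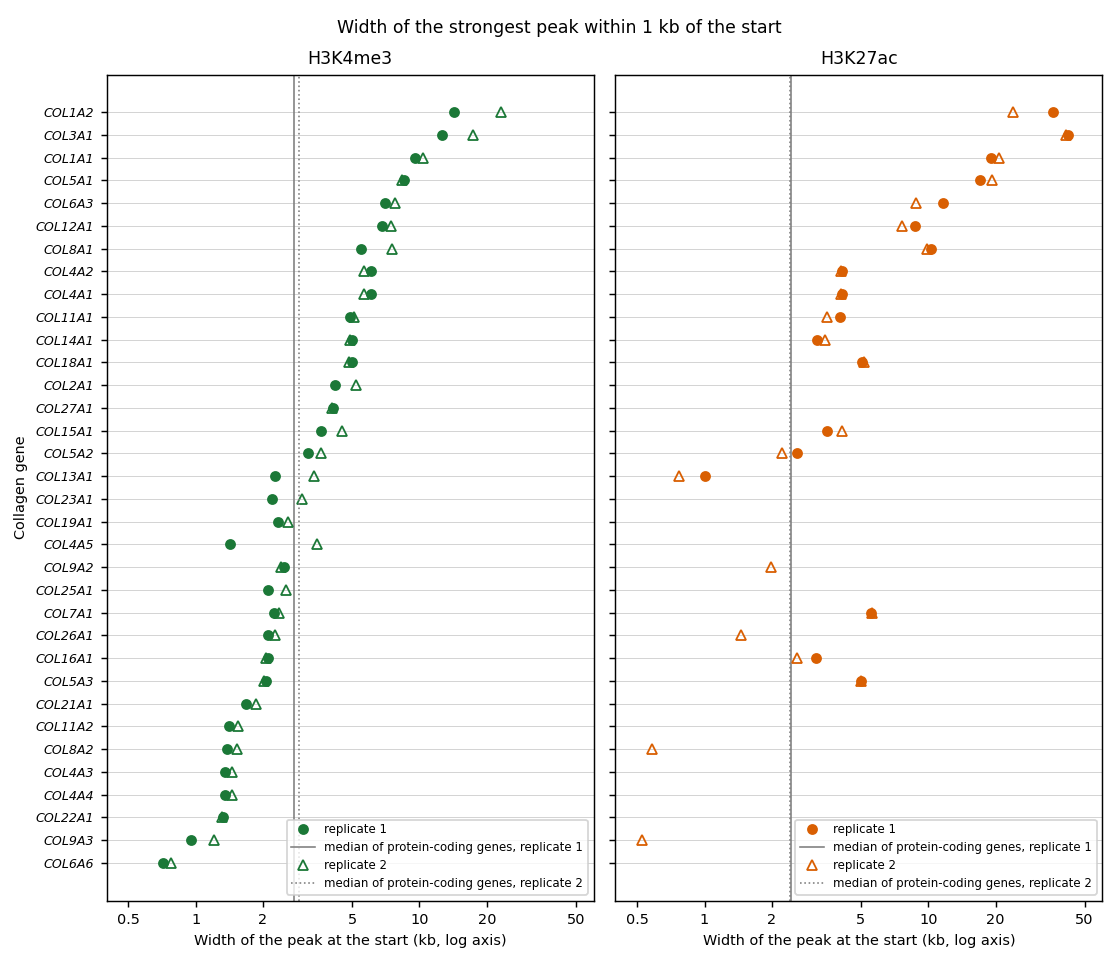
Each row is 1 of the 34 collagen genes with H3K4me3 at the start, ordered by the mean width of that peak, and the log axis gives the width in kb of the strongest H3K4me3 (left) or H3K27ac (right) peak in replicate 1 (filled circles) and replicate 2 (open triangles), with the medians of protein-coding genes as vertical lines. COL1A2, COL3A1, COL1A1 and COL5A1 lead in both panels, and 4 genes have an open triangle but no circle for H3K27ac.

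The other fibrillar collagens varied. COL5A3, a minor type V chain, had H3K4me3 folds of 38.7 and 18.1 and H3K27ac folds of 16.1 and 15.1, all below the median of protein-coding starts in the same library. COL11A1, a type XI chain known from cartilage fibrils and also made by activated fibroblasts, carried H3K4me3 (48.1 and 27.8) and H3K27ac (10.5 and 10.8), the latter at the percentiles 25.1 and 22.3. A long noncoding RNA gene on the opposite strand, LOC110260369, starts 773 bp from the COL11A1 start, so these peaks cannot be given to either gene. COL5A2, the second type V chain, had H3K4me3 (61.7 and 40.6) and H3K27ac (21.2 and 28.4) at the 5′ end of its annotation. That start lies 77 bp from the start of WDR75, a gene of ribosome production on the opposite strand, so the peaks there cannot be given to either gene. It was the 1 collagen start with a protein-coding gene other than a collagen starting within 1 kb.

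A second annotated start of COL5A2, 222.4 kb downstream at chr15:93758690, had wider peaks. Its H3K4me3 peak measured 11004 bp and 14916 bp with folds of 53.4 and 50.9, and the H3K27ac fold was 42.5 and 41.9. The inner start was thus higher than the outer for H3K27ac in both replicates and for H3K4me3 in replicate 2 only. COL16A1, a FACIT collagen of connective tissue, had a higher inner start for both marks: its H3K4me3 fold was 25.9 and 13.6 at the outer start and 59.5 and 32.3 at the start 10.7 kb downstream, and its H3K27ac fold 19.6 and 29.4 against 25.6 and 30.3. COL27A1, a fibrillar collagen of cartilage and developing tissue, had H3K4me3 (57.4 and 24.0) and no H3K27ac at its outer start, whereas H3K27ac (14.02 and 14.4) appeared within 1 kb of the start that 4 of its transcripts use, 1.24 kb downstream. At COL9A1, a start 24.5 kb downstream had H3K4me3 (11.8 and 9.62) where the outer start had no peak of any library.

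**Figure D3:**
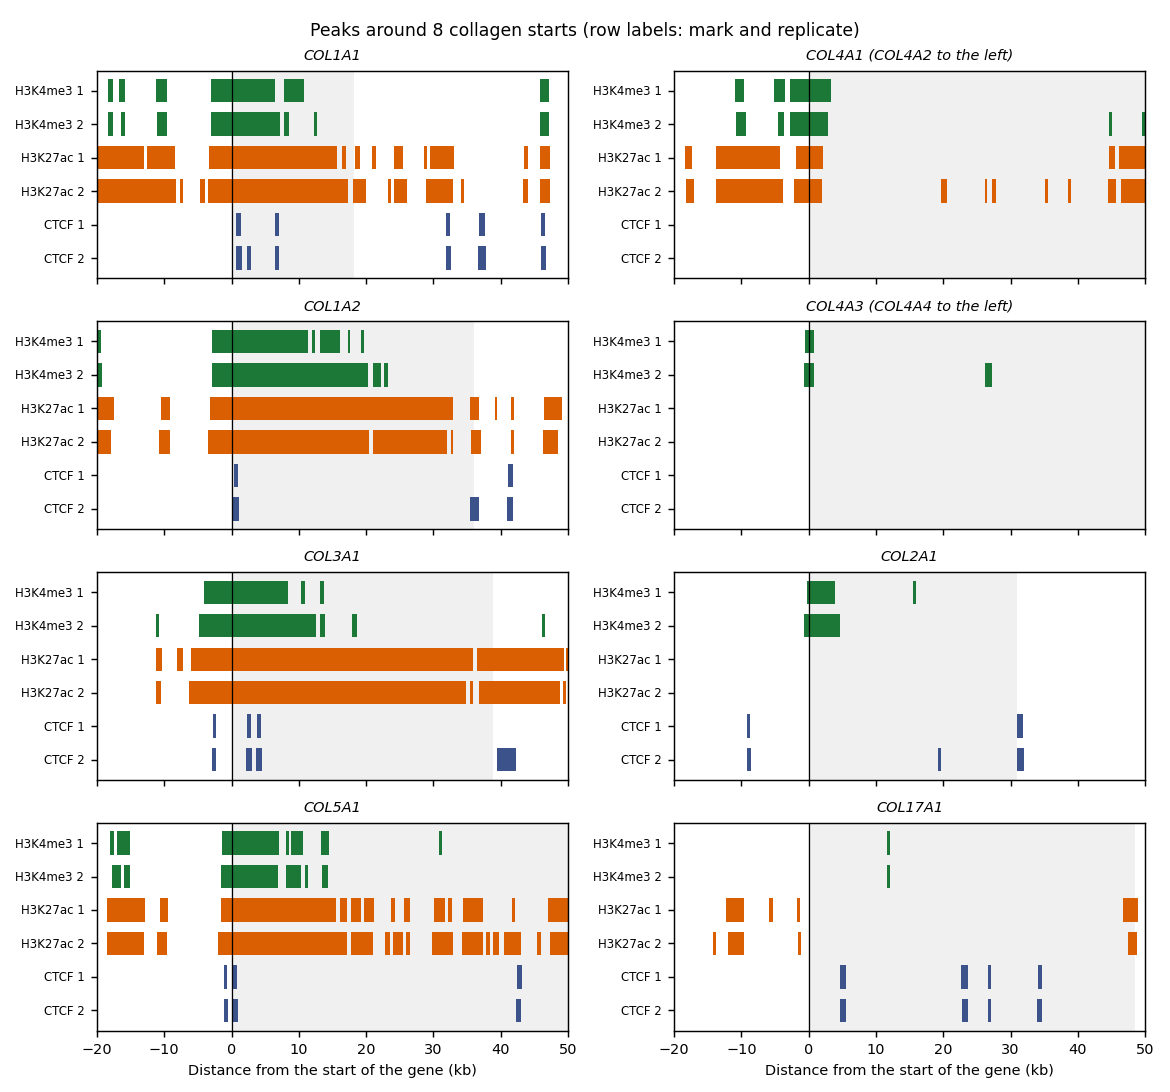
Bars mark the peaks of the 6 libraries (rows, named by mark and replicate) from 20 kb before to 50 kb after the start of 8 genes, drawn in the direction of transcription along an axis of distance in kb, with the gene body shaded. H3K27ac covers almost the whole body of COL1A1, COL1A2 and COL3A1, spans the shared start of COL4A1 and COL4A2, and is missing over COL2A1 and the shared start of COL4A3 and COL4A4, where H3K4me3 is present.

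The collagens known from cartilage varied, and COL11A1, described above, had both histone marks. COL2A1 (chr5:78350131-78380893, minus strand), the main collagen of cartilage, had H3K4me3 with folds of 29.97 and 18.99 over 4196 bp and 5232 bp, the widest such peak among the 12 genes without H3K27ac. No H3K27ac peak lay anywhere in its body, and the nearest was 37.1 kb upstream in replicate 1 and 26.5 kb upstream in replicate 2. COL11A2, which encodes another type XI chain, had low H3K4me3 (13.7 and 6.41, percentiles 6.87 and 4.63), no H3K27ac, and CTCF in replicate 2 only (7.65). The 3 chains of type IX collagen, which coats cartilage fibrils, differed: COL9A1 had no peak at its outer start, COL9A2 had H3K4me3 (32.8 and 22.9) and H3K27ac in replicate 2 only (7.41), and COL9A3 had low H3K4me3 (14.6 and 7.97), H3K27ac in replicate 2 only (4.45) and CTCF in replicate 2 only (5.49). At COL9A2 the replicates differed by position rather than by presence, since the replicate 1 peak (7.36) began 1.01 kb from the start. COL10A1, the collagen of hypertrophic cartilage, had neither histone mark and no CTCF at its start. It did have 1 H3K27ac peak 3.40 kb and 3.74 kb downstream, with folds of 18.8 and 24.6, which covered 51.3% and 46.5% of this short gene of 6.99 kb. COL10A1 lies wholly inside NT5DC1 on the opposite strand, so this peak belongs to the span of both genes.

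Type IV collagens are encoded by pairs of genes that face away from each other, and both closely spaced pairs were in the annotation. The starts of COL4A1 and COL4A2, the chains of nearly all basement membranes, lie 524 bp apart with overlapping 5′ ends on chromosome 11. A single H3K4me3 peak covered both, of 6080 bp (fold 56.7) in replicate 1 and 5646 bp (27.1) in replicate 2. A single H3K27ac peak covered them as well, of 4109 bp (15.3) and 4091 bp (16.9), with its summit 378 bp and 380 bp inside COL4A1. The 133 bases printed above, which lie under both peaks, hold 1 CCAAT box, 2 GC boxes and 18 CpG, with 78.9% G and C.

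The starts of COL4A3 and COL4A4, whose chains are known from the basement membranes of kidney, lung and inner ear, lie 662 bp apart on chromosome 15. Their shared H3K4me3 peak was narrower, of 1356 bp (fold 26.5) and 1457 bp (11.09), at the percentiles 15.0 and 10.1 of fold. No H3K27ac peak lay between or near these starts: the closest was 155.9 kb upstream of COL4A4 in replicate 1, at the start of MFF, and 79.6 kb downstream in replicate 2, inside COL4A4 with a fold of 3.59. The 661 bases between the starts, where the 5′ ends overlap and annotated exons lie, hold 4 GC boxes and 56 CpG, with 71.1% G and C. This stretch is unlike the exon-free 133 bases of the other pair, which lie beyond the overlap. Both stretches were CpG-rich, and the pairs differed in H3K27ac and in the width of H3K4me3. Neither pair had CTCF at the starts. The nearest CTCF peak to the start was 72.0 kb and 71.9 kb away for COL4A1 and 27.4 kb and 27.4 kb away for COL4A4.

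COL4A5 and COL4A6 face away from each other on chromosome X, but their annotated starts lie 207.9 kb apart, so they were not counted as a close pair. COL4A5 had H3K4me3 (23.7 and 16.9) without H3K27ac, and COL4A6 had neither. The nearest H3K27ac peak to COL4A6 was 201.8 kb and 151.3 kb from its start, and the only peaks in its body were 4 CTCF peaks in each replicate.

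Among the remaining classes, COL6A3, a chain of the type VI beaded filaments that surround cells, had high H3K4me3 (62.4 and 34.8) and H3K27ac (25.0 and 27.7, 11602 bp and 8781 bp). COL6A6 had weak H3K4me3 (7.34 and 5.83) without H3K27ac, and COL6A5, its neighbour 43.6 kb away on the same strand, had neither. COL7A1, which forms the anchoring fibrils under the epidermis, had H3K4me3 at the percentiles 30.6 and 23.8 of fold and H3K27ac of low rank (9.71 and 10.1, percentiles 22.3 and 19.99), with the H3K27ac summit at -2977 bp and -2972 bp from the start. COL17A1, the hemidesmosome collagen of epithelial cells, had no peak of any library at its start, and its nearest H3K27ac peak (3.41 and 3.33) lay 1.33 kb and 1.11 kb upstream. The epithelial markers EPCAM and CDH1 had H3K4me3 and no H3K27ac, and KRT5 had neither.

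Of the FACIT genes, COL12A1 and COL14A1, which bind to the surface of type I fibrils, carried both marks. COL12A1 had H3K4me3 folds of 57.0 and 28.9 and H3K27ac folds of 22.1 and 19.3. COL14A1 had H3K4me3 (52.4 and 20.9), weak H3K27ac (6.15 and 11.4) and CTCF (34.3 and 39.1). COL19A1, COL21A1 and COL22A1 had H3K4me3 (folds from 12.4 to 35.3) without H3K27ac, and COL20A1 had neither, like COL28A1 of the remaining class. The nearest H3K27ac peak to the COL19A1 start (3.74 and 4.73) began 1.064 kb and 1.145 kb downstream, just outside the window. Among the transmembrane collagens, COL13A1 had H3K4me3 (47.5 and 22.5) and the weakest H3K27ac of the 18 genes (4.23 and 4.30), while COL23A1 and COL25A1 had H3K4me3 only. The multiplexins COL15A1 and COL18A1, basement membrane collagens that carry heparan or chondroitin sulfate, both had the 2 marks, with H3K27ac folds of 14.2 and 21.9 and of 18.4 and 23.9. COL8A1, a short-chain collagen of vessel and corneal layers, had H3K27ac over 10266 bp and 9888 bp at folds of only 11.6 and 12.0. COL8A2, its partner, had a barely enriched H3K27ac peak in replicate 2 (2.54), and COL26A1 had one in replicate 2 (6.37) whose counterpart in replicate 1 (4.42) began 1.22 kb from the start.

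The collagen bodies were long, with a median of 139.6 kb (6.99 to 469.2 kb) beside 20.7 kb for protein-coding genes, so a count of genes with any peak in the body says less than a rate. H3K4me3 lay in the body of 38 of 42 collagen genes (90.5%, beside 76.9%), H3K27ac in 30 (71.4%, beside 70.6%) and CTCF in 39 (92.9%, beside 49.8%). Per 100 kb of gene, the pooled H3K27ac rate was 5.38 and 6.52 peaks in collagen genes and 4.53 and 4.95 in protein-coding genes, and the CTCF rate was 2.17 and 2.41 beside 1.89 and 2.13. For H3K4me3 the pooled rate was 2.33 and 2.65 beside 2.45 and 2.70. Over single genes the order for H3K27ac turned, with a median rate of 4.55 and 4.98 in collagen genes and 4.78 and 5.29 in protein-coding genes. H3K27ac covered 13.6% and 14.2% of all collagen gene bases, beside 7.91% and 8.08% of protein-coding gene bases. The median coverage of a gene was closer, 6.76% and 7.59% beside 5.75% and 6.13%. H3K4me3 covered 3.33% and 4.49% of all collagen gene bases, beside 3.94% and 4.57%, so its pooled coverage and rate were below the background.

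In covered bases, the largest parts came from COL5A2 (167 kb and 156 kb), COL14A1, COL5A1, COL8A1, COL15A1 and COL6A3, which together held 57.6% and 57.0% of the sum over collagen genes. As a share of the gene, H3K27ac covered 98.5% and 96.1% of COL3A1, 90.5% and 95.7% of COL1A1, 92.9% and 89.6% of COL1A2, 48.0% and 58.1% of COL5A1, 50.9% and 54.3% of COL16A1, and 48.0% and 56.8% of COL6A3. At the other end, 11 of 42 collagen genes had no H3K27ac peak in the body in either replicate, COL2A1, COL11A2, COL4A3 and COL25A1 among them. The share with such a peak in both replicates was near the background (71.4%, beside 70.6%), so such absence is not particular to collagen genes. COL25A1, a neuronal transmembrane collagen, is the longest of the genes at 469.2 kb. COL20A1, COL4A6 and COL6A5 had no histone peak in the body in any library. No collagen gene was without any peak in the body or within 50 kb. The shares of protein-coding genes under these rules for absent peaks were not computed.

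**Figure D4:**
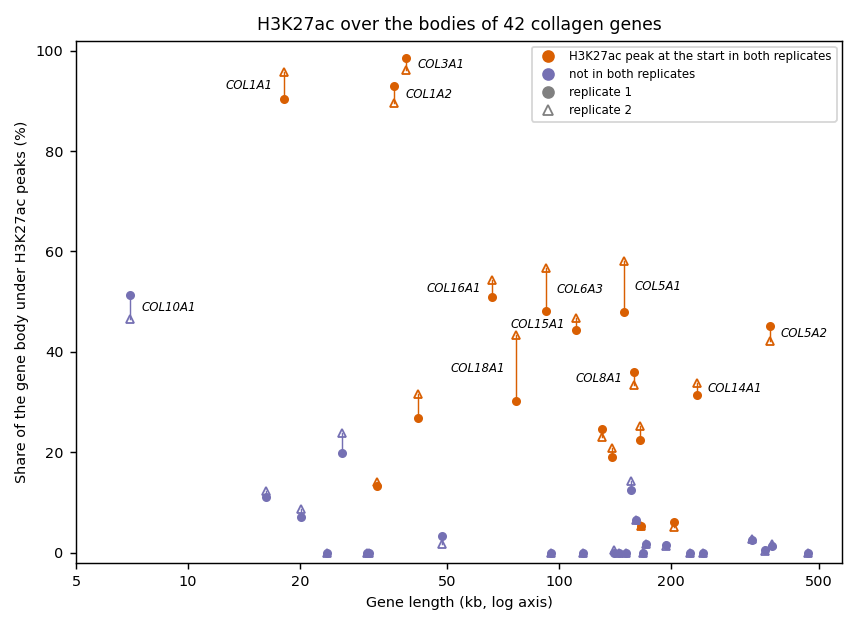
Each collagen gene is placed by its length (kb, log axis) and by the share of its body under H3K27ac peaks (percent) in replicate 1 (filled circle) and replicate 2 (open triangle), joined by a line, in orange where H3K27ac is at the start in both replicates and in purple otherwise. COL1A1, COL1A2 and COL3A1 stand between 89.6% and 98.5%, and the longest gene, COL25A1, stands at 0.

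The largest numbers of H3K27ac peaks in the body were in COL5A2 (57 and 64), COL14A1 (39 and 47) and COL5A1 (30 and 39), and the highest rates were in COL16A1 (22.8 and 24.3 per 100 kb), COL5A1 (20.1 and 26.2) and COL6A3 (19.5 and 25.0). Of the 318 and 386 H3K27ac peaks in collagen bodies, 22 and 25 were at a collagen start and 6 and 4 at the start of another gene. Another 58 and 74 lay away from starts but overlapped H3K4me3 of the same replicate number. The other 232 and 283 overlapped no H3K4me3 peak of that replicate number. Some of these did overlap H3K4me3 of the other replicate, as replicate 1 peaks in COL10A1 and COL12A1 did. Replicate 2 had more peaks, and 88.7% of the replicate 1 peaks overlapped a replicate 2 peak while 73.8% did so in reverse.

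Away from every annotated start, 27 collagen genes had H3K27ac in the body in both replicates (64.3%, beside 39.9% of the shorter protein-coding genes). In 19 of them the strongest such peaks of the 2 replicates overlapped by at least 1 base. Per 100 kb of gene, such peaks numbered 4.89 and 6.02 in collagen genes and 3.22 and 3.60 in protein-coding genes. Apart from the COL10A1 peak named above, which had its summit in an exon, the highest were in introns. The COL5A2 peak at chr15:93785956-93791665 had folds of 34.9 and 29.6, at 192 kb from the outer start. COL13A1 had a peak at chr14:72853420-72858478, 68.6 kb inside the gene, of 32.2 and 32.5, against 4.23 and 4.30 at its start. COL15A1 had one at chr1:240749933-240761884 (31.3 and 31.8), COL6A3 one at chr15:137013510-137026249 (26.4 and 24.4), COL14A1 one at chr4:18772535-18777217 (25.8 and 25.1) and COL8A1 one at chr13:159295217-159303290 (23.2 and 20.8). In COL5A2, COL13A1, COL15A1, COL14A1 and COL8A1 this intronic peak had a higher fold than the peak at the outer start in both replicates. The outer start of COL5A2 is shared with WDR75, however. At the inner COL5A2 start the H3K27ac fold was 42.5 and 41.9, above that of the intronic peak. Each intronic peak was picked as the highest of several peaks away from starts, from 3 and 4 in COL13A1 to 54 and 62 in COL5A2. A highest value was thus set against a single peak, and the same comparison was not made over protein-coding genes. COL24A1, a fibrillar collagen with no peak within 1 kb of its start, also had an intronic H3K27ac peak (11.9 and 10.9) 13.8 kb inside. Just outside that window it had H3K4me3 (3.39 and 4.99) 1.384 kb and 1.183 kb upstream. H3K27ac (3.87 and 2.95) lay 1.031 kb and 1.245 kb upstream.

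CTCF was at the start of COL1A1, COL1A2, COL5A1, COL27A1, COL14A1, COL16A1, COL13A1 and COL23A1 in both replicates, and at COL11A2, COL15A1 and COL9A3 in replicate 2 only. COL13A1 had the highest of these peaks (57.3 and 64.4, percentile 99.1 in both), with its summit at -1383 bp and -1366 bp from the start, outside the 1 kb window that its edge reached. The summits at COL14A1 (-1297 bp and -1291 bp) and COL1A1 (1120 bp and 1099 bp) were also outside it. By fold, COL23A1 came next (39.9 and 45.3). COL27A1 (33.8 and 36.1) was similar in both replicates, whereas COL16A1 (23.7 and 43.1) was not. COL5A1 had 2 lower peaks, 1 on each side of its start. The upstream peak had folds of 8.30 and 14.2 and the downstream peak 9.84 and 13.4. The COL15A1 peak (2.32) was at the percentile 0.160.

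The core of the CTCF motif was searched as CCNNNAGNNGGC, where N is any base, on both strands within 50 bp of the summit. It was found at 35.7% of the CTCF peaks of replicate 1 and 34.8% of replicate 2, against 1.29% and 1.31% in windows 1 kb away. In collagen bodies, 53 of 129 (41.1%) and 55 of 143 (38.5%) peaks had it. The sites at the type I and type III starts, at COL13A1 and at COL27A1 are shown because these genes lead the results above or hold sites on both strands (COL27A1), with the core in capitals and 9 bases on each side, written on the strand of the motif.
COL1A1: cccaggcggCCACTAGGTGGCgggccaccc
COL1A2: attgtcctcCCTCCAGAGGGCgcctcagag
COL3A1: ctctgtcagCCACTAGGTGGCgagtctttg
COL13A1: tgccaatgaCCACCAGGGGGCactagagaa
COL27A1 upstream: gctggggagCCCGCAGGCGGCtggccggcg
COL27A1 downstream: tggctgcggCCAGCAGGGGGCagcaggggg

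The COL1A1 site (chr12:26396019-26396048) and the COL1A2 site (chr9:74175156-74175185) lie in introns, on the strand opposite to the gene. The COL1A1 core lay within 50 bp of the summit in replicate 1 only, since the summit of replicate 2 was farther from it. The COL3A1 site (chr15:93559481-93559510) lies in an intron beyond the 1 kb window, under a peak of fold 40.9 and 47.1, and again on the opposite strand. The COL13A1 site (chr14:72785397-72785426) lies upstream of the gene and on the opposite strand. COL27A1 had sites on both sides of its start, an upstream one (chr1:254768067-254768096) opposite to the gene and an intronic one (chr1:254769758-254769787) on its strand. At COL14A1, COL16A1, COL5A1 and COL23A1 the core letters were not in the window, which says nothing on how CTCF was bound there.

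Inside the genes, the most CTCF peaks were in COL26A1 (10 and 10), COL23A1 (7 and 9) and COL5A2 (6 and 7), and the highest rates per 100 kb in the short genes COL1A1 (11.05 and 16.6), COL8A2 (11.5 and 7.69) and COL20A1 (8.45 and 8.45). COL7A1 and COL10A1 had none. The nearest CTCF peak to a collagen start was at a median of 5.06 kb and 4.43 kb, and at most 98.6 kb and 88.9 kb, in replicates 1 and 2, beside medians of 10.1 kb and 8.37 kb for protein-coding genes. CTCF was within 50 kb of 37 of 42 starts (88.1%) in each replicate, beside 87.8% and 89.4%.

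In the 50 kb on either side of the genes, H3K4me3 was found for 37 of 42 collagen genes (88.1%, beside 81.6%), H3K27ac for 35 (83.3%, beside 83.7%) and CTCF for 36 (85.7%, beside 87.4%). COL3A1 and COL5A2 end 16.2 kb from each other on chromosome 15, and H3K27ac filled much of that gap, with 3 and 4 peaks of up to 12894 bp and 11995 bp. COL19A1 and COL9A1 end 1.098 kb from each other, and no peak of any library lay between them. Adjacent collagen genes were alike at the outer start in some cases and not in others. COL3A1 and COL5A2 both had the 2 histone marks there, although the COL5A2 start lies 77 bp from that of WDR75. COL19A1 had H3K4me3 at its outer start, whereas COL9A1 had no peak there. At the inner start of COL9A1, H3K4me3 was present (11.8 and 9.62).

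The base composition at the starts varied as widely as the marks. The CpG ratio, the number of CpG divided by that expected from the C and G in 500 bases on each side of the start, had a median of 0.54 (0.12 to 0.99) at the 18 starts with both marks, 0.67 (0.44 to 0.90) at the 12 with H3K4me3 and no H3K27ac, 0.45 (0.39 to 0.64) at the 4 with H3K27ac in 1 replicate and 0.22 (0.11 to 0.53) at the 8 with neither. The medians of protein-coding genes in the same groups were 0.76, 0.70, 0.68 and 0.27. COL3A1, with the widest H3K27ac peak, had a ratio of 0.12, close to COL9A1 (0.11) and COL28A1 (0.12), which had no histone mark there. COL1A1 (0.51) and COL1A2 (0.46) were intermediate, and COL4A1 (0.99) and COL5A1 (0.98) had the highest.

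**Figure D5:**
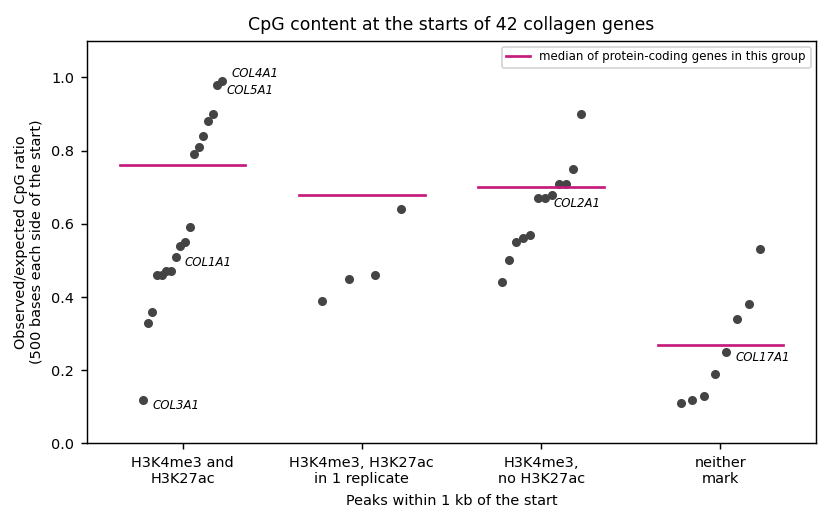
Points give the observed over expected CpG ratio in 500 bases on each side of the start of the 42 collagen genes, in 4 groups by the peaks at the start, and pink lines the median of protein-coding genes in the same group. COL3A1 stands at 0.12 in the group with both marks, and the 12 genes with H3K4me3 and no H3K27ac stand between 0.44 and 0.90.

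In the 250 bases before the start, a TATA box was found at 4 of 42 collagen genes (9.52%, beside 6.13% of protein-coding genes), a CCAAT box at 18 (42.9%, beside 31.8%) and a GC box at 20 (47.6%, beside 46.0%). COL1A2 has a TATA box at -29 and a CCAAT box on the other strand at -80, counted from the base before the start as -1. COL10A1, COL13A1 and COL6A5 are the other 3 with a TATA box, so this motif was found at marked and unmarked starts alike. COL2A1 has 2 GC boxes in the sequence printed above. A match describes the letters only.

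Collagen chains need a set of enzymes and chaperones for hydroxylation, folding, cleavage and cross-linking, and 31 such genes were examined in the same way. H3K4me3 was at the start of 28 of 31, H3K27ac of 27 and CTCF of 6 in both replicates. The shares over protein-coding genes were 68.9%, 60.7% and 17.9%, so CTCF was near its background. SERPINH1, the collagen chaperone of the endoplasmic reticulum, had H3K27ac folds of 29.8 and 41.4. P4HB, a subunit of prolyl hydroxylase, had 41.4 and 53.8, PLOD2, a lysyl hydroxylase, 31.0 and 30.2, LOX, which cross-links fibrils, 25.9 and 26.9, and BMP1, which cleaves procollagen, 22.6 and 24.1. SPARC, a collagen-binding protein, had an H3K27ac peak of 18574 bp and 24456 bp, close in width to that of COL1A1, and an H3K4me3 peak in replicate 1 only (3.68). COLGALT2, a collagen galactosyltransferase, was the 1 gene of this list with H3K4me3 in both replicates and H3K27ac in neither, and P4HA3 and COLGALT1 had no peak at the annotated start. While H3K4me3 without H3K27ac was found at 1 of these 31 genes, it was found at 12 of the 42 collagen genes, beside 8.25% of protein-coding genes.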

How the data were processed

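ChIP-seq of H3K4me3, H3K27ac and CTCF in PEFs was analysed from the peak lists, with samples grouped by the mark and replicate in their labels. Per the labels, the authors used Bowtie2, MACS2 and the build Sscrofa11.1, and per the methods they kept read pairs with both ends mapped to 1 place, removed duplicates and called narrow peaks in each library. The deposited lists hold a score (not used), a fold enrichment ratio over the control, −log10 p-values and q-values, and the summit position. Lists were used as deposited, although they include q-values above the limit in the methods. Fold enrichment depends on each library and its control, so ranks were taken within a library. The labels name 1 histone input and 1 CTCF input, so the replicates of a mark may share a control. Input libraries and merged peaks were not analysed here.

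Starts, gene bodies and flanks of 50 kb came from the RefSeq annotation of Sscrofa11.1 (chromosomes 1 to 18 and X). Overlap required 1 bp. Sequences were read with samtools 1.23.1 and pysam 0.24.0, and tables were made with pandas 2.3.3 in Python 3.11.15. The overlap code was tested on simulated peaks. The collagen genes, the gene lists and the rule for named genes (type I, III, V and VI and cartilage collagens, COL7A1, COL17A1, close pairs, the 3 leading genes of each measure and those that differ between replicates) were chosen with earlier results of these data known. Genes outside the rule were named after their values were seen. Alternatives covered the start window, the start used, stricter peaks, summits, shared peaks, the flank and each replicate left out. No depth is given, so no counting interval was computed. One promoter sequence is not reported here.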

Additional observations from a re-analysis of the deposited data

How the results depend on the processing

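No paired analysis was possible because the results come from no test: replicate numbers name libraries of different marks, and each value is a count or a rank within 1 library. Of 72 values of 12 counts under other settings, 66 stayed within 1.5 times the reported one, and so did all 26 that leave out a replicate. Collagen genes with CTCF at the start numbered 21 instead of 8 within 5 kb (35.0% of protein-coding genes instead of 17.9%). By the summit alone they numbered 5 of 42, beside 15.3% of protein-coding genes, so the collagen share was then below the background. Genes with both histone marks numbered 9 instead of 18 by the summit alone, as summits of wide peaks lie beyond 1 kb. The share of protein-coding genes with both marks by the summit was not computed. With −log10 q of at least 5, H3K27ac peaks in collagen bodies fell from a mean of 352 to 226, and with a flank of 20 kb the H3K27ac and CTCF peaks outside the genes fell from 195 to 84 and from 119.5 to 53.5, as fewer bases were searched. The 12 genes with H3K4me3 and no H3K27ac numbered 10 to 16 under alternatives chosen after seeing the data, with 16 when H3K27ac replicate 2 was left out. Over all annotated genes instead of protein-coding ones, the background was 55.4% for H3K4me3 and 50.1% for H3K27ac. Over protein-coding genes it was 74.7% and 66.9% within 5 kb, beside 35 and 26 of 42 collagen genes. By the summit it was 52.2% and 51.2%, beside 24 and 14 of 42. With 1 replicate left out it was 69.6% to 69.6%, 61.3% to 62.7% and 18.4% to 22.5% for H3K4me3, H3K27ac and CTCF. The lists give no depth, so a missing peak is one not called at the depth of that library.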
